A study of Danio rerio with 9 samples.

Results

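The livers of 2 zebrafish null lines, focad null and pdia6 null, were set together against livers of the wild-type AB line. The comparison used the 9 RNA sequencing libraries of the study, of which 3 were labelled focad null, 3 pdia6 null and 3 wild type. The 6 null libraries formed a single group in which each line had equal weight, and the 3 wild-type libraries formed the other. A gene entered if its mean over the 9 libraries reached 0.5 FPKM (reads scaled by gene length and library depth), which left 13290 genes of the 33716 gene IDs in the deposited table. Fish of both lines were labelled MZ, read here as maternal-zygotic nulls. Such fish are meant to lack the gene's product from the egg and from their own genome, and the labels give no measure of it. The pdia6 null and wild-type fish were 3.5 months old, and for focad null fish the labels used here give no age. The sample titles name AB for the wild type and name no strain for either null line. A difference of strain or stock that both lines share against AB therefore cannot be told apart from the loss of either gene. Whether each library came from its own fish is not given in the labels, so the spread behind every p-value is that among these libraries and may be technical.

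The liver makes most plasma proteins, including complement, clotting and lipid-carrying proteins, and it stores, burns and synthesises fat. Focadhesin, the product of focad, is known in human cells to act with the SKI complex, which unwinds mRNA for decay by the cytoplasmic exosome. Pdia6 is an oxidoreductase of the endoplasmic reticulum (ER) that forms and rearranges disulfide bonds in secreted proteins. The genes therefore act at different steps, mRNA decay and protein folding, and their null lines were compared with the same wild-type libraries. Major histocompatibility complex (MHC) class I molecules present peptides to T cells, and in zebrafish the class I genes are known to differ in content between haplotypes.

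Depth ran between 46.1 and 54.5 M reads per library. Levels are FPKM after median-ratio rescaling of the libraries. The targeted transcripts did not separate the pooled nulls from wild type. Focad stood at 0.276, 0.528 and 0.24 FPKM in the focad null libraries, 1.21, 0.933 and 1.09 FPKM in the pdia6 null libraries, and 1.14, 0.521 and 1.03 FPKM in wild type (log2 difference -0.17, SE 0.16, adjusted p = 0.737). Pdia6 stood at 26.4, 26 and 17.8 FPKM in the focad null libraries, 44.2, 0.902 and 0.913 FPKM in the pdia6 null libraries, and 265, 14.2 and 56.4 FPKM in wild type (log2 difference -2.42, SE 1.16, adjusted p = 0.483). The second focad null library and the first pdia6 null library thus held their targeted transcript within the wild-type range and go against their labels by this measure. Both were kept, since loss of a protein need not remove its mRNA, and group names here are those of the labels. With both left out, 242 genes were called in place of 208, and 155 genes were called either way.

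Markers of hepatocytes were abundant in every library, with fabp10a, a liver fatty acid carrier, at 23089, 14533 and 11023 FPKM in the focad null libraries, 17449, 33694 and 27377 FPKM in the pdia6 null libraries, and 20665, 31919 and 20643 FPKM in wild type. The summed level of the 28 hepatocyte markers tested was 163380.0 to 166166 FPKM in the focad null, 176004 to 193170.0 FPKM in the pdia6 null and 192719 to 210241 FPKM in the wild-type libraries. Markers of absorptive intestinal cells summed to 9349 to 45007 FPKM in the focad null, 10129 to 16269.6 FPKM in the pdia6 null and 5984 to 11331 FPKM in the wild-type libraries. Of the 40 in the table, 1 had no read in any library, and the 35 tested had a median log2 difference of 1.45 pooled, 2.98 for focad null and -0.06 for pdia6 null, and vil1, a protein of the intestinal brush border, stood at 23.4, 192 and 1.74 FPKM in the focad null libraries, 0.013, 0.182 and 0.00693 FPKM in the pdia6 null libraries, and 0.336, 0.141 and 0.943 FPKM in wild type. In pdia6 null libraries vil1 was near 0, and in focad null libraries it was above every wild-type library. Apoa1a, an apolipoprotein gene among these intestinal markers, stood at 7543, 8377 and 5752 FPKM in the pdia6 null libraries and 8109, 7520 and 4423 FPKM in wild type. It was the largest part of the intestinal marker sum in those libraries, so that sum is no measure of intestinal cells alone. The 25 exocrine pancreas markers summed to 1329.5 to 5956 FPKM in the focad null, 709 to 1444 FPKM in the pdia6 null and 585 to 1770.0 FPKM in the wild-type libraries. The 6 endocrine pancreas markers tested summed to 9.53 to 235 FPKM in focad null, 5.05 to 11.02 FPKM in pdia6 null and 0.507 to 4.29 FPKM in wild-type libraries. These sums were thus higher in every null library than in wild type. Their median log2 difference was 1.05 pooled, 1.99 for focad null and 0.13 for pdia6 null, and limma called 0 of them. The part of any of these tissues in the pooled differences was not tested, and in bulk tissue fewer cells of a type and less RNA per cell cannot be told apart.

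Of the 13290 genes, 208 were called, meaning that they passed the limma test of the pooled difference at an adjusted p below 0.05. This is 1.57% of the genes tested. Of these, 76 rose (0.572%) and 132 fell (0.993%). A further test asked whether the lines differed from each other, using the null libraries alone in its contrast. It called 41 of the 208 genes. The 31 called genes whose null and wild-type libraries overlapped were all among these 41. The remaining 167 genes had all 6 null libraries on the same side of all wild-type libraries and no call between the lines, and they are the changes described here as common. Such separation alone, without the test, was found for 787 genes, or 5.92% of those tested. Among the common changes, 50 rose, with log2 differences between 0.67 and 5.14 and a median of 1.47. The other 117 fell, by a median of 1.56 on the log2 scale and by at most 8.82. The median absolute difference between the lines was 0.37 in these 167 genes, beside 1.55 for the pooled difference, which the choice of these genes favours. In 16 of the common decreases both lines averaged below 0.1 FPKM, and in 11 of the common increases wild type did. The median over all genes tested was 0.02, and 1552 genes (11.7%) had an unadjusted p under 0.05, against which the counts of list members at that level are read. Counts of called list members are likewise read against the 1.57% of all genes that were called.

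**Figure D1:**
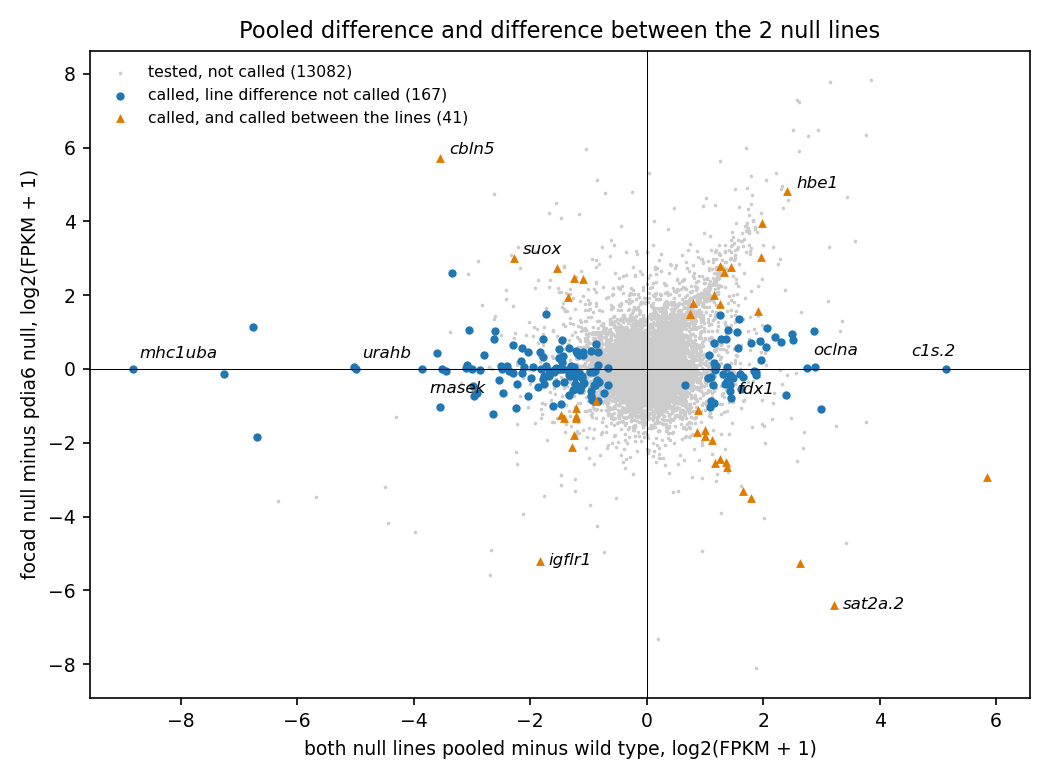
Each point is a gene tested, with its pooled difference from wild type on the horizontal axis and its focad null minus pdia6 null difference on the vertical axis, both on the log2(FPKM + 1) scale. The 167 common changes (circles) lie along the horizontal line, from mhc1uba at -8.82 to c1s.2 at 5.14, whereas the 41 genes also called between the lines (triangles) lie off it, such as sat2a.2 at -6.39 and cbln5 at 5.72 on the vertical axis.

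Genes of antigen presentation gave the largest common decrease. Mhc1uba (ENSDARG00000075963), a class I heavy chain, stood at 0.0727, 0.0811 and 0.0157 FPKM in the focad null libraries, 0.0164, 0.0317 and 0.105 FPKM in the pdia6 null libraries, and 306, 919.7 and 379 FPKM in wild type. That is 19 reads in the 6 null libraries together and 81985 in the 3 of wild type. No null library came near the lowest wild-type library (log2 difference -8.82, SE 0.31, adjusted p = 4.22e-06). Mhc1uca, a second class I gene, had 1 read in the null libraries and 1782 in wild type (log2 difference -3.52, SE 0.18, adjusted p = 3.8e-05). Tapbp.1, named for tapasin, which loads peptides onto class I molecules, averaged 1.37 ± 0.675 FPKM in focad null, 1.004 ± 0.238 FPKM in pdia6 null and 9.17 ± 4.55 FPKM in wild-type libraries (SD, n = 3 each), and its groups did not overlap (log2 difference -2.15, SE 0.30, adjusted p = 0.012). Mhc1zja, of another class I lineage, averaged 0.157 ± 0.0687 FPKM in focad null, 0.239 ± 0.116 FPKM in pdia6 null and 1.27 ± 0.23 FPKM in wild-type libraries (log2 difference -0.92, SE 0.14, adjusted p = 0.017). These 4 were the members of the 30 tested genes of class I presentation that fell, and 0 rose. Of all genes tested, 0.993% fell and 0.572% rose. The median of the list was -0.02, and it turned positive, at 0.04, without rescaling of the libraries. Log2 differences of genes with no or few reads in a group depend on the pseudocount of 1 FPKM.

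Other immune transcripts moved in both directions. Caspa, a zebrafish inflammatory caspase, stood at 0.502, 3.42 and 0.868 FPKM in the focad null libraries, 0.189, 0.0243 and 0.121 FPKM in the pdia6 null libraries, and 9.48, 18.4 and 10.5 FPKM in wild type. Every null library was below every wild-type library, and the pdia6 null libraries were the lowest (log2 difference -3.05, SE 0.35, adjusted p = 0.00469). Cd28l, named for a co-stimulatory receptor of T cells, was between 0.0772 and 1.8 FPKM in the 6 null libraries, and between 6.56 and 14.6 FPKM in wild type (log2 difference -2.91, SE 0.33, adjusted p = 0.00469). Igic1s1, an immunoglobulin light chain constant region, averaged 0.128 ± 0.162 FPKM in focad null, 0.139 ± 0.207 FPKM in pdia6 null and 2.34 ± 1.42 FPKM in wild-type libraries (log2 difference -1.48, SE 0.27, adjusted p = 0.0369). It was the 1 call among 6 B cell markers tested, and 0 of 5 T and NK cell markers were called. In the opposite direction, nlrp3l2, named for the inflammasome sensor NLRP3, stood at 4.21, 10.4 and 3.47 FPKM in the focad null libraries, 4.08, 2.75 and 2.01 FPKM in the pdia6 null libraries, and 0 FPKM in each wild-type library. Wild type held no read of it and the null libraries 5984, so it was at least 1001-fold higher in the null libraries with 3 reads over the wild-type group as the floor (log2 difference 2.31, SE 0.30, adjusted p = 0.00916). Oxer1 (ENSDARG00000062874), in human the receptor of an arachidonic acid product, averaged 6.95 ± 1.71 FPKM in focad null, 10.4 ± 1.04 FPKM in pdia6 null and 2.27 ± 1.47 FPKM in wild-type libraries (log2 difference 1.61, SE 0.27, adjusted p = 0.026). The other ID named oxer1 differed by 0.03 on the log2 scale and did not pass (adjusted p = 0.978). In the inflammasome and Toll-like receptor list of 20 genes tested, nlrp3l2 and tlr18 rose and caspa fell, and limma voom called 1 of them. The shares over all genes tested were 0.572% higher and 0.993% lower. Tlr18 was high in focad null libraries and near the wild-type level in pdia6 null libraries, with its values given among the genes that differ between the lines. Of 28 interferon response genes tested, limma and limma voom called 0, and 3 had an unadjusted p under 0.05. Refitted 9 times, each time without 1 library, oxer1 passed 3 times and igic1s1 2 times. Limma voom on recovered reads did not call nlrp3l2 (adjusted p = 0.0594) or igic1s1 (adjusted p = 0.0901).

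Complement held the largest common increase. C1s.2 (ENSDARG00000102094), which encodes a protease like C1s of the classical pathway, stood at 137, 52.2 and 74.2 FPKM in the focad null libraries, 158, 22.8 and 143 FPKM in the pdia6 null libraries, and 1.16, 0.685 and 2.43 FPKM in wild type. The lowest null library was above the highest wild-type library, and the lines were not called different (log2 difference 5.14, SE 0.62, adjusted p = 0.00623; between the lines 0.01, SE 0.72, adjusted p = 0.997). C3a.3, a gene of the central complement protein C3, stood at 245, 186 and 233 FPKM in the focad null libraries, 288, 192 and 279 FPKM in the pdia6 null libraries, and 647, 583 and 529.7 FPKM in wild type, with no overlap (log2 difference -1.32, SE 0.22, adjusted p = 0.026). In all, 1 of 35 complement genes rose and 1 fell, beside 0.572% and 0.993% of all genes tested. A positive difference was found in 7 of the 35. The list median was -0.41 pooled, -0.57 for focad null and -0.26 for pdia6 null. C4b and c1r, which act at the start of the classical pathway, were lower in all 6 null libraries than in wild type and did not pass. C4b averaged 539.6 ± 118 FPKM in focad null, 802 ± 281 FPKM in pdia6 null and 1397 ± 399.9 FPKM in wild-type libraries (adjusted p = 0.164), and c1r 309 ± 138 FPKM in focad null, 484 ± 226 FPKM in pdia6 null and 835 ± 145 FPKM in wild-type libraries (adjusted p = 0.263).

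Coagulation and acute phase genes had mostly negative differences and 1 call, while 18 of 25 apolipoprotein genes were positive. Without the third wild-type library the pooled apolipoprotein median was -0.02. Pros1, the gene of protein S, an anticoagulant cofactor, stood at 14.1, 18.2 and 44.5 FPKM in the focad null libraries, 18.9, 36.6 and 81.7 FPKM in the pdia6 null libraries, and 152, 196 and 451 FPKM in wild type. Its groups did not overlap (log2 difference -2.97, SE 0.56, adjusted p = 0.042). It was the 1 call among 31 coagulation genes, whose median was -0.37 pooled, -0.57 for focad null and -0.26 for pdia6 null, with 5 of 31 positive. Prothrombin (f2) averaged 1160.0 ± 337 FPKM in focad null, 1235 ± 286 FPKM in pdia6 null and 1799 ± 152 FPKM in wild-type libraries (adjusted p = 0.408). Of 20 acute phase genes, 0 were called by limma or limma voom and 6 had an unadjusted p under 0.05, and their median was -0.44 pooled, -0.55 for focad null and -0.53 for pdia6 null. Ceruloplasmin (cp), a copper carrier, averaged 2856 ± 499 FPKM in focad null, 3566 ± 506 FPKM in pdia6 null and 4886 ± 574 FPKM in wild-type libraries (adjusted p = 0.277). Haptoglobin (hp), which binds free haemoglobin, was below wild type in every null library and lowest in focad null, at 9.69 ± 6.74 FPKM in focad null, 319 ± 263 FPKM in pdia6 null and 884 ± 529.6 FPKM in wild-type libraries (adjusted p = 0.113). Of the 28 hepatocyte markers 0 were called by either tool and 7 had an unadjusted p under 0.05, their median was -0.34 pooled, -0.38 for focad null and -0.30 for pdia6 null, and 6 of 28 were positive. The hepatocyte marker sums, given above, were lower in focad null and overlapped between pdia6 null and wild type. Their part in the plasma protein differences was not tested. The hepatocyte and acute phase lists share members, such as hp and cp, so the medians of these lists are not independent. Both null lines share the wild-type libraries, so a low median in each is not independent. Pros1 passed in 2 of the 9 fits without 1 library, c3a.3 in 4, and limma voom did not call pros1 (adjusted p = 0.0662).

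**Figure D2:**
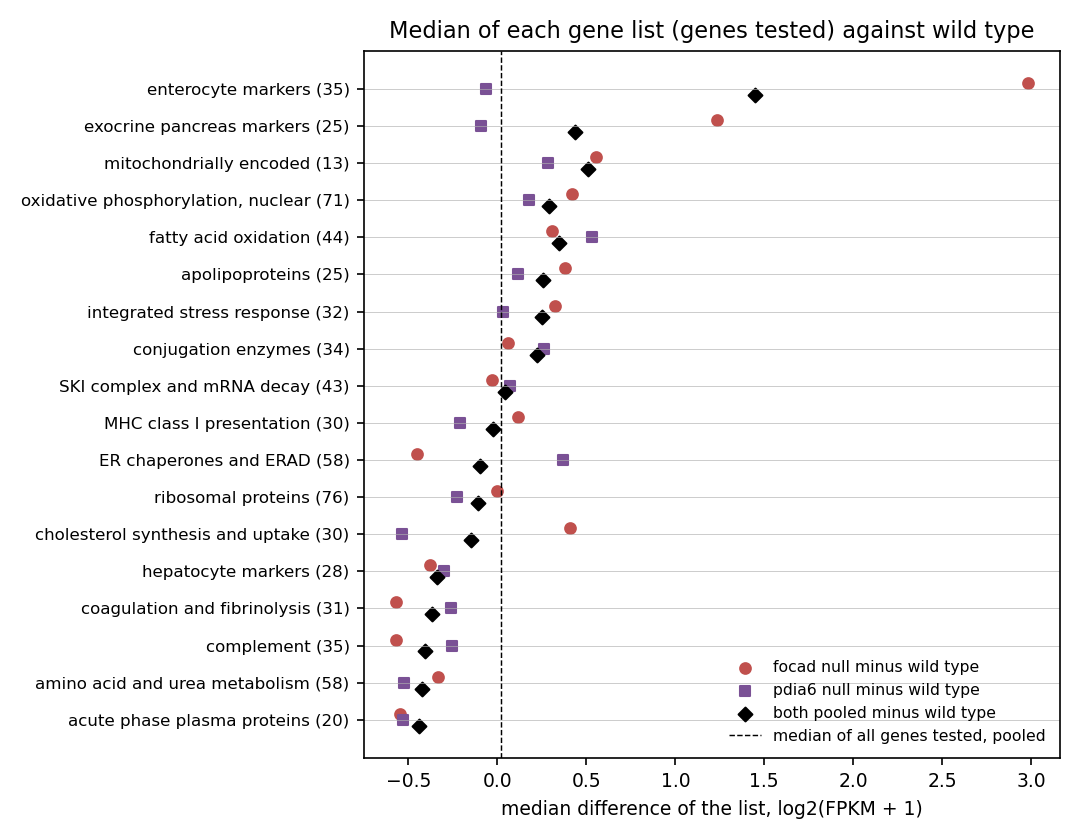
Median difference from wild type of 18 gene lists, on the log2(FPKM + 1) scale, for focad null (circles), pdia6 null (squares) and both pooled (diamonds). Complement, coagulation and acute phase lists lie left of the dashed median of all genes (0.02) and fatty acid oxidation and oxidative phosphorylation right of it in both lines, whereas enterocyte markers (2.98 and -0.06) and ER chaperones (-0.45 and 0.37) lie on opposite sides of it for focad null and pdia6 null. The summed ER chaperone level was 17731.5 FPKM in the first pdia6 null library and 2917 and 3942 FPKM in the others of that line.

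Enzymes of urate and purine breakdown included the common decrease of second lowest p. Urahb, which hydrolyses an intermediate between urate and allantoin, stood at 0, 0.0176 and 0 FPKM in the focad null libraries, 0.0143, 0 and 0 FPKM in the pdia6 null libraries, and 29.3, 32.7 and 30.9 FPKM in wild type. The null libraries held 2 reads in all and wild type 5636 (log2 difference -4.99, SE 0.12, adjusted p = 2.45e-07). Gda, guanine deaminase, averaged 28 ± 5.43 FPKM in focad null, 18.9 ± 5.17 FPKM in pdia6 null and 60.02 ± 15.8 FPKM in wild-type libraries without overlap (log2 difference -1.34, SE 0.26, adjusted p = 0.04995). Of 22 genes tested, these 2 fell and 0 rose, beside 0.993% and 0.572% of all genes tested. The list median was 0.001, and 11 of the 22 differences were positive. In all 6 null libraries 4 members lay below wild type and 1 above, beside 3.15% and 2.77% of all genes tested. Among the rest, xanthine dehydrogenase (xdh), which makes urate, averaged 28.1 ± 11.4 FPKM in focad null, 33.2 ± 6.56 FPKM in pdia6 null and 52.6 ± 7.61 FPKM in wild-type libraries (adjusted p = 0.312). The member above wild type in all 6 null libraries was nt5c2b, which did not pass either (adjusted p = 0.1125). Its level averaged 70.4 FPKM in focad null, 58.55 FPKM in pdia6 null and 22 FPKM in wild-type libraries. Gda lay at the threshold and passed in 1 of 9 fits without 1 library, and with limma voom its adjusted p was 0.0712.

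Conjugation enzymes make fat-soluble compounds excretable, and 5 of the 34 tested fell while 0 rose. Over all genes tested 0.993% fell and 0.572% rose. Most of the list did not follow these 5, since 21 of the 34 differences were positive. Ugt5a2, a glucuronosyltransferase, stood at 0.277, 0.112 and 0.276 FPKM in the focad null libraries, 0.239, 0.143 and 0.457 FPKM in the pdia6 null libraries, and 8.38, 4.05 and 4.56 FPKM in wild type. The highest null library was below 1 FPKM, and wild type was above 4 in each library (log2 difference -2.36, SE 0.21, adjusted p = 0.00142). Ugt5b2 averaged 7.64 ± 1.89 FPKM in focad null, 10.03 ± 1.97 FPKM in pdia6 null and 24.9 ± 3.89 FPKM in wild-type libraries (log2 difference -1.42, SE 0.20, adjusted p = 0.0136), and the sulfotransferase gene sult3st3 4.43 ± 3.51 FPKM in focad null, 1.33 ± 0.174 FPKM in pdia6 null and 21.4 ± 12.4 FPKM in wild-type libraries (log2 difference -2.6, SE 0.43, adjusted p = 0.026). Ugt2a6 and ugt2a5 also fell, by 2.62 and 0.96 on the log2 scale (adjusted p = 0.0303 and 0.0352). The list median was 0.22 pooled, 0.06 for focad null and 0.26 for pdia6 null, beside 0.02 over all genes. Sult1st1, sult2st2 and ugt5b3 were higher in all 6 null libraries than in wild type and did not pass, with adjusted p-values of 0.0687, 0.162 and 0.0972. Close family members share sequence, and how the authors' counting treated reads that match several of them is not given. Ptgr1.1, named for prostaglandin reductase, was between 0.464 and 4.51 FPKM in the 6 null libraries, and between 18.9 and 32.4 FPKM in wild type (log2 difference -3.6, SE 0.38, adjusted p = 0.00349). Gstt1b, a glutathione transferase, averaged 52.4 ± 8.82 FPKM in focad null, 23.5 ± 3.25 FPKM in pdia6 null and 7.88 ± 2.75 FPKM in wild-type libraries (log2 difference 2.07, SE 0.25, adjusted p = 0.00568). Sult3st3 and ugt2a6 passed in 3 of the 9 fits each, ugt2a5 in 2 and ugt5b2 in 7.

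Fdx1, ferredoxin 1, which passes electrons to mitochondrial enzymes, stood at 186, 187 and 238 FPKM in the focad null libraries, 200.4, 210.5 and 228 FPKM in the pdia6 null libraries, and 68.1, 50.8 and 50.5 FPKM in wild type. The 6 null libraries spanned a narrow range well above wild type (log2 difference 1.87, SE 0.20, adjusted p = 0.00337; between the lines -0.07, SE 0.23, adjusted p = 0.903). Timm23b, a channel subunit that imports proteins across the inner membrane, stood at 5.51, 2.58 and 5.001 FPKM in the focad null libraries, 1.56, 2.91 and 2.28 FPKM in the pdia6 null libraries, and 0.16, 0.279 and 0.107 FPKM in wild type, with all null libraries above wild type (log2 difference 1.79, SE 0.23, adjusted p = 0.00798). Pycr1a, a proline-synthesising enzyme, averaged 1.5 ± 0.379 FPKM in focad null, 1.5 ± 0.869 FPKM in pdia6 null and 0.0829 ± 0.0475 FPKM in wild-type libraries (log2 difference 1.17, SE 0.21, adjusted p = 0.0343), and was called in neither line alone. Oxa1l and samm50l, which place proteins in the inner and outer membrane, also rose, by 1.11 and 0.66 on the log2 scale, and were picked after their values were seen. In oxidative phosphorylation, 0 of 71 nuclear genes were called by limma or limma voom and 5 had an unadjusted p under 0.05, while 64 had a positive difference and 10 lay above wild type in all 6 null libraries (2.77% of all genes tested did, and 3.15% lay below). Their median was 0.29 pooled, 0.42 for focad null and 0.18 for pdia6 null, and it stayed between 0.22 and 0.35 when any 1 library was left out. Uqcr10, a subunit of complex III, averaged 42 ± 9.26 FPKM in focad null, 48.7 ± 7.05 FPKM in pdia6 null and 30.4 ± 2.32 FPKM in wild-type libraries (adjusted p = 0.305). Of the 13 mitochondrially encoded genes 0 passed by either tool, also at an unadjusted p under 0.05, and their median was 0.51 pooled, 0.56 for focad null and 0.28 for pdia6 null. Limma voom called neither timm23b (adjusted p = 0.0712) nor pycr1a (adjusted p = 0.0906), and pycr1a passed in 3 of 9 fits.

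Fat-handling enzymes had 3 calls upward and 1 downward. Ehhadh, a bifunctional enzyme of peroxisomal fatty acid oxidation, stood at 94.3, 81.9 and 57.6 FPKM in the focad null libraries, 95.4, 137 and 122 FPKM in the pdia6 null libraries, and 40.03, 32.5 and 31.8 FPKM in wild type. Every null library was above every wild-type library, and pdia6 null was the higher line on average (log2 difference 1.42, SE 0.23, adjusted p = 0.0213). Of 44 fatty acid oxidation genes tested, 2 gene IDs rose and 1 fell, beside 0.572% and 0.993% of all genes tested. In this list 36 differences were positive. The median was 0.35 pooled, 0.31 for focad null and 0.53 for pdia6 null, beside 0.02 pooled over all genes. Of all genes tested, 3.15% lay below wild type in all null libraries and 2.77% above. In this list 1 member lay below wild type in all of them, and 8 members lay above. Among these without a call, cpt2, which frees fatty acids from carnitine inside mitochondria, averaged 13.1 ± 1.36 FPKM in focad null, 21.3 ± 4.45 FPKM in pdia6 null and 6.53 ± 3.4 FPKM in wild-type libraries (adjusted p = 0.0628), and hadhb, of the trifunctional protein, averaged 40.4 ± 11.6 FPKM in focad null, 40.01 ± 0.842 FPKM in pdia6 null and 18.8 ± 1.81 FPKM in wild-type libraries (adjusted p = 0.0528). Acacb, acetyl-CoA carboxylase 2, whose product blocks fatty acid entry into mitochondria, stood at 17.5, 14.6 and 24.8 FPKM in the focad null libraries, 14.2, 21.1 and 24.6 FPKM in the pdia6 null libraries, and 8.47, 3.89 and 2.73 FPKM in wild type. Its groups did not overlap (log2 difference 1.84, SE 0.33, adjusted p = 0.0341), and it was the 1 call among 29 genes of fatty acid and triglyceride synthesis. Among 25 apolipoprotein genes 0 were called by limma or limma voom, and 3 had an unadjusted p under 0.05. Their median was 0.26 pooled, 0.38 for focad null and 0.12 for pdia6 null. As single libraries were left out, the pooled median ran from -0.02 without the third wild-type library to 0.38 without the first. Apoa4b.3, also an intestinal marker, averaged 52.2 ± 40.2 FPKM in focad null, 27.7 ± 25.8 FPKM in pdia6 null and 2.82 ± 3.14 FPKM in wild-type libraries (adjusted p = 0.0688). Ehhadh passed in 4 of the 9 fits without 1 library and acacb in 3.

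The 2 gene IDs named acadsb, short and branched chain acyl-CoA dehydrogenase, moved in opposite directions. ENSDARG00000098174 stood at 1.24, 1.92 and 1.28 FPKM in the focad null libraries, 1.33, 1.6 and 2.27 FPKM in the pdia6 null libraries, and 0.0566, 0.0328 and 0.0212 FPKM in wild type and rose (log2 difference 1.32, SE 0.16, adjusted p = 0.00568). ENSDARG00000076780 stood at 6.21, 3.6 and 5.09 FPKM in the focad null libraries, 6.52, 7.13 and 6.22 FPKM in the pdia6 null libraries, and 10.8, 17.5 and 11.9 FPKM in wild type and fell (log2 difference -1.08, SE 0.21, adjusted p = 0.0464). Neither overlapped between null and wild type. The second call rests on the threshold and was lost without rescaling (adjusted p = 0.0871) and with limma voom (adjusted p = 0.0614). Pcnp, a nuclear protein gene, showed a like pair. ENSDARG00000116774 stood at 0, 0.0503 and 0 FPKM in the focad null libraries, 0 FPKM in each of the pdia6 null libraries, and 4.47, 14.6 and 6.71 FPKM in wild type (log2 difference -3.11, SE 0.29, adjusted p = 0.00155), while ENSDARG00000037713 stood at 20.3, 26.2 and 21 FPKM in the focad null libraries, 15.5, 20.7 and 18.2 FPKM in the pdia6 null libraries, and 7.71, 11.4 and 12.3 FPKM in wild type and did not pass (log2 difference 0.90, SE 0.20, adjusted p = 0.0814). For rnasek, a ribonuclease gene, ENSDARG00000104458 averaged 0.413 ± 0.0741 FPKM in focad null, 0.47 ± 0.0504 FPKM in pdia6 null and 14.7 ± 1.64 FPKM in wild-type libraries (log2 difference -3.44, SE 0.13, adjusted p = 4.93e-06), and the other ID differed by 0.07 (adjusted p = 0.923). Of the called symbols, 28 are held by 2 to 8 gene IDs, 16 of them with at least 2 IDs tested, and in 9 of these 16 another ID had the opposite sign. Signs of uncalled IDs near 0 are counted here, such as rnasek at 0.07 and cyp8b1 at -0.04. Only for acadsb did IDs of opposite sign both pass, so the 9 are not 9 pairs of opposite changes. How the authors' counting treated reads shared by near-identical copies is not given, so the level of each such ID is uncertain.

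**Figure D3:**
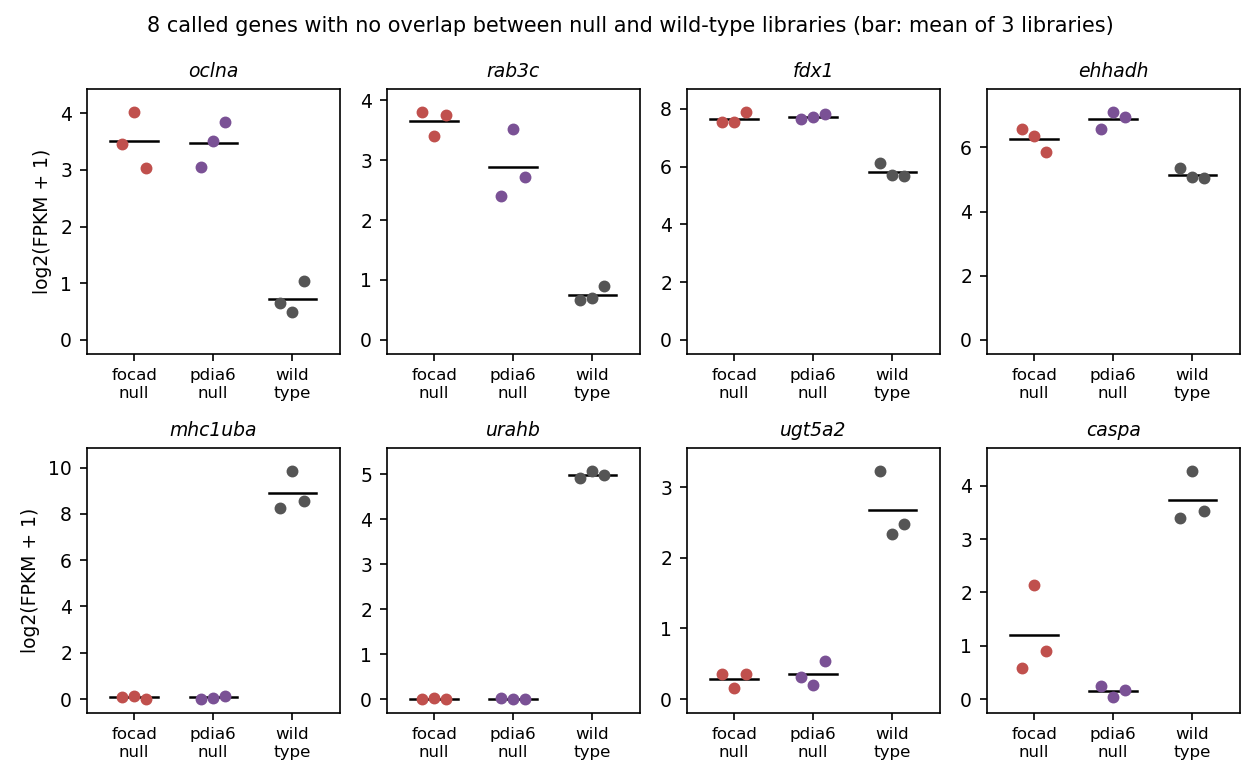
Levels of 8 called genes in the focad null, pdia6 null and wild-type libraries, on the log2(FPKM + 1) scale, with 3 points and a bar for the mean in each group. In oclna, rab3c, fdx1 and ehhadh the 6 null points lie above wild type, and in mhc1uba, urahb, ugt5a2 and caspa below it.

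Among the other large increases, oclna, occludin of tight junctions, stood at 9.95, 15.3 and 7.17 FPKM in the focad null libraries, 7.26, 10.3 and 13.4 FPKM in the pdia6 null libraries, and 0.566, 0.409 and 1.04 FPKM in wild type. The lowest null library was several times the highest wild-type library (log2 difference 2.76, SE 0.27, adjusted p = 0.00209; between the lines 0.04, SE 0.31, adjusted p = 0.967). Rab3c, a small GTPase of vesicle release, was between 4.29 and 13 FPKM in the 6 null libraries, and between 0.585 and 0.861 FPKM in wild type (log2 difference 2.52, SE 0.25, adjusted p = 0.00209). Ndrg1, a stress-responsive gene in human cells, averaged 93.5 ± 58.4 FPKM in focad null, 82.2 ± 23.4 FPKM in pdia6 null and 13.3 ± 12.7 FPKM in wild-type libraries (log2 difference 2.89, SE 0.54, adjusted p = 0.042). Phf20l1, in human a reader of methylated lysine, averaged 38.2 ± 8.2 FPKM in focad null, 96.8 ± 61.9 FPKM in pdia6 null and 6.48 ± 3.27 FPKM in wild-type libraries (log2 difference 3.00, SE 0.47, adjusted p = 0.0204). Fthl27, of the iron-storing ferritin heavy chain family, stood at 241, 468 and 535 FPKM in the focad null libraries, 186, 194 and 484 FPKM in the pdia6 null libraries, and 73.3, 86.2 and 69.6 FPKM in wild type (log2 difference 2.06, SE 0.38, adjusted p = 0.0395). It was the 1 call among 43 antioxidant and iron genes, and fth1, another ferritin heavy chain gene, was below wild type in all 6 null libraries, at 2.11 ± 0.34 FPKM in focad null, 1.39 ± 0.909 FPKM in pdia6 null and 4.26 ± 2.08 FPKM in wild-type libraries (adjusted p = 0.231). Phf20l1 passed in 6 of 9 fits without 1 library, ndrg1 and fthl27 in 3 each, and limma voom did not call ndrg1 (adjusted p = 0.0565).

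The other large decreases were of varied function. Lnc.85, a non-coding RNA gene, had no read in the null libraries and 1431 in wild type, at least 1052-fold lower in null libraries with 3 reads over the null group as the floor (log2 difference -3.85, SE 0.35, adjusted p = 0.00155). Gad1 (ENSDARG00000093411), named for glutamate decarboxylase, had none either against 489 reads, at least 345-fold lower on the same floor (log2 difference -1.5, SE 0.26, adjusted p = 0.0302). Znf1179, a zinc finger gene, stood at 0.434, 0.504 and 0.43 FPKM in the focad null libraries, 0.45, 0.513 and 10.9 FPKM in the pdia6 null libraries, and 17.5, 26.4 and 27 FPKM in wild type. The third pdia6 null library held most of its null signal and was still below wild type (log2 difference -3.54, SE 0.62, adjusted p = 0.0326). C20h6orf58, the counterpart of human C6orf58, stood at 445, 284 and 274 FPKM in the focad null libraries, 155, 344 and 299 FPKM in the pdia6 null libraries, and 965, 3487 and 2323 FPKM in wild type (log2 difference -2.79, SE 0.44, adjusted p = 0.021), and the other ID of that symbol did not pass (log2 difference -1.04, adjusted p = 0.368). Cbln17, one of 11 cerebellin-like secreted proteins tested, averaged 11.1 ± 3.75 FPKM in focad null, 10.8 ± 5.55 FPKM in pdia6 null and 37.1 ± 7.89 FPKM in wild-type libraries (log2 difference -1.73, SE 0.32, adjusted p = 0.0378). Mmp14 (ENSDARG00000002235), a membrane-bound matrix protease, averaged 0.536 ± 0.192 FPKM in focad null, 0.469 ± 0.185 FPKM in pdia6 null and 2.57 ± 0.651 FPKM in wild-type libraries (log2 difference -1.24, SE 0.17, adjusted p = 0.011). The other ID named mmp14 did not pass (log2 difference -0.16, adjusted p = 0.862). ENSDARG00000002235 was the 1 call among 31 matrix genes, whose summed level was 769 to 1211 FPKM in the focad null, 1240.3 to 1367 FPKM in the pdia6 null and 1749 to 2010.2 FPKM in the wild-type libraries. The list median was 0.10 pooled, 0.21 for focad null and -0.16 for pdia6 null, and 17 of 31 were positive. Fibronectin (fn1), which made up most of the sum, averaged 748 ± 266 FPKM in focad null, 1226 ± 59.96 FPKM in pdia6 null and 1737 ± 179 FPKM in wild-type libraries (adjusted p = 0.207). Znf1179, gad1 and cbln17 passed in 2 of the 9 fits each, c20h6orf58 in 7 and mmp14 in 8.

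The RNA decay machinery with which focadhesin is known to act had 1 call among 43 genes tested, beside 1.57% called over all genes. Exosc3, a core subunit of the RNA exosome, stood at 3.19, 3.47 and 4.53 FPKM in the focad null libraries, 3.44, 5.39 and 5.09 FPKM in the pdia6 null libraries, and 0.997, 1.79 and 1.71 FPKM in wild type. Each null library was above each wild-type library (log2 difference 1.05, SE 0.19, adjusted p = 0.0381). Of the 43 genes of the SKI complex and mRNA decay tested, it alone was called, and the list median was 0.04 pooled, -0.03 for focad null and 0.07 for pdia6 null. Of 58 ER chaperone and degradation genes 0 were called by limma or limma voom, and 0 had an unadjusted p under 0.05. The lines had medians of opposite sign, -0.45 for focad null and 0.37 for pdia6 null. The summed level of the list was 17731.5 FPKM in the first pdia6 null library and 2917 and 3942 FPKM in the others of that line. In wild type it was 2527 to 6573 FPKM, so the high sum rested on 1 pdia6 null library. Of 32 integrated stress response genes 0 were called by either tool and 3 had an unadjusted p under 0.05 (median 0.25 pooled, 0.33 for focad null and 0.03 for pdia6 null). Cholesterol synthesis genes, 30 tested with none called, also had medians of opposite sign, 0.41 and -0.53, and the pooled median ran between -0.48 and 0.30 as single libraries were left out. Amino acid and urea metabolism had 1 call of 58, suox, which overlapped wild type and differed between the lines, as given below. The median of this list was -0.42 pooled, -0.33 for focad null and -0.52 for pdia6 null. Leaving out 1 wild-type library moved that pooled median between -0.72 without the first and -0.11 without the second. Exosc3 passed in 2 of 9 fits and not with limma voom (adjusted p = 0.109).

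Several other lists gave 0 calls by limma or limma voom. Cytochrome P450 genes, which oxidise steroids and foreign compounds, had a median of 0.03 pooled, -0.09 for focad null and -0.18 for pdia6 null, and 7 of 35 had an unadjusted p under 0.05. Clock genes, with 33 tested, had 8 at that level and a median of -0.10 pooled, 0.13 for focad null and -0.38 for pdia6 null. Ribosomal protein genes, with 76 tested, had 0 at that level and a median of -0.11 pooled, -0.0047 for focad null and -0.22 for pdia6 null. The sign of these pooled medians depended on the scaling of the libraries. Macrophage markers, with 20 tested, had a median of -0.11 pooled, 0.0017 for focad null and -0.28 for pdia6 null, and 5 had an unadjusted p under 0.05. Biliary markers, with 13 tested, had a median of -0.15 pooled, -0.16 for focad null and -0.35 for pdia6 null and 3 at that level.

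Against wild type alone, focad null had 207 calls (1.56%) and pdia6 null 163 (1.23%). Pooling called 25 genes that passed in neither line alone, 9 higher and 16 lower. Gad1, acacb and pycr1a, given above, were among them, as were prcc and brms1la. Prcc, linked to mRNA splicing in human cells, was between 2.15 and 2.72 FPKM in the 6 null libraries, and between 4.48 and 6.29 FPKM in wild type (log2 difference -0.84, SE 0.15, adjusted p = 0.0341). Brms1la, named for a subunit of a histone deacetylase complex, was between 4.01 and 9.14 FPKM in the 6 null libraries, and between 13.4 and 19 FPKM in wild type (log2 difference -1.34, SE 0.24, adjusted p = 0.0356). Both had groups that did not overlap. Prcc passed in 1 of 9 fits without 1 library and brms1la in 2.

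The 41 genes called in the pooled comparison and between the lines were not counted as common. In 10 of them all 6 null libraries still lay on the same side of all wild-type libraries. Because each line has equal weight, a large change in a single line gives a pooled difference of about its midpoint. Hbe1 (ENSDARG00000097238), a globin gene, stood at 30.3, 28.8 and 26.7 FPKM in the focad null libraries, 0.0315, 0.0912 and 0.0335 FPKM in the pdia6 null libraries, and 0, 0 and 0.138 FPKM in wild type. Only the focad null libraries were high (focad null minus pdia6 null 4.81, SE 0.15, adjusted p = 1.47e-06). Other gene IDs named hbe1 did not share this pattern and were not called in the pooled comparison. ENSDARG00000089087 averaged 108 FPKM in focad null, 65.5 FPKM in pdia6 null and 193 FPKM in wild-type libraries. ENSDARG00000069734 averaged 6.96 FPKM in focad null, 23.9 FPKM in pdia6 null and 9.47 FPKM in wild-type libraries. Sat2a.2, named for a polyamine acetyltransferase, stood at 0, 0 and 0.0401 FPKM in the focad null libraries, 109.8, 65 and 83.5 FPKM in the pdia6 null libraries, and 0 FPKM in each wild-type library. Here the pdia6 null libraries alone were high (between the lines -6.39, SE 0.20, adjusted p = 1.47e-06). Cbln5, a cerebellin-like gene, stood at 71.5, 28.4 and 70.18 FPKM in the focad null libraries, 0.0303, 0 and 0 FPKM in the pdia6 null libraries, and 107, 102 and 54.9 FPKM in wild type, low in pdia6 null alone (between the lines 5.72, SE 0.39, adjusted p = 0.000675). Suox, sulfite oxidase, was also low in pdia6 null, at 30.6 ± 12.2 FPKM in focad null, 2.71 ± 0.47 FPKM in pdia6 null and 50.4 ± 10.8 FPKM in wild-type libraries (between the lines 3.01, SE 0.34, adjusted p = 0.00496). Igflr1, a receptor gene, was low in focad null alone, at 0.0695 ± 0.035 FPKM in focad null, 38.8 ± 1.21 FPKM in pdia6 null and 24 ± 10.7 FPKM in wild-type libraries (between the lines -5.22, SE 0.32, adjusted p = 0.000351). Msrab, a methionine sulfoxide reductase, averaged 5.15 ± 0.503 FPKM in focad null, 0.13 ± 0.118 FPKM in pdia6 null and 4.63 ± 0.873 FPKM in wild-type libraries (between the lines 2.45, SE 0.18, adjusted p = 0.000755). The fish Toll-like receptor gene tlr18 averaged 6.9 ± 1.85 FPKM in focad null, 0.117 ± 0.0827 FPKM in pdia6 null and 0.248 ± 0.227 FPKM in wild-type libraries (between the lines 2.8, SE 0.21, adjusted p = 0.000843), and 1 of 3 gene IDs named cyp8b1, a bile acid enzyme, averaged 2.12 ± 0.355 FPKM in focad null, 0.121 ± 0.081 FPKM in pdia6 null and 0.114 ± 0.0382 FPKM in wild-type libraries (between the lines 1.47, SE 0.15, adjusted p = 0.00321). Of the 41, 21 differed from wild type by more in focad null and 20 by more in pdia6 null, in either direction. In all, 160 genes (1.2%) were called between the lines, 119 of them not in the pooled comparison. Opposite signs in the 2 lines were found in 9 of the 208 pooled calls. Limma voom did not call hbe1, tlr18, cyp8b1 or msrab in the pooled comparison.

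**Figure D4:**
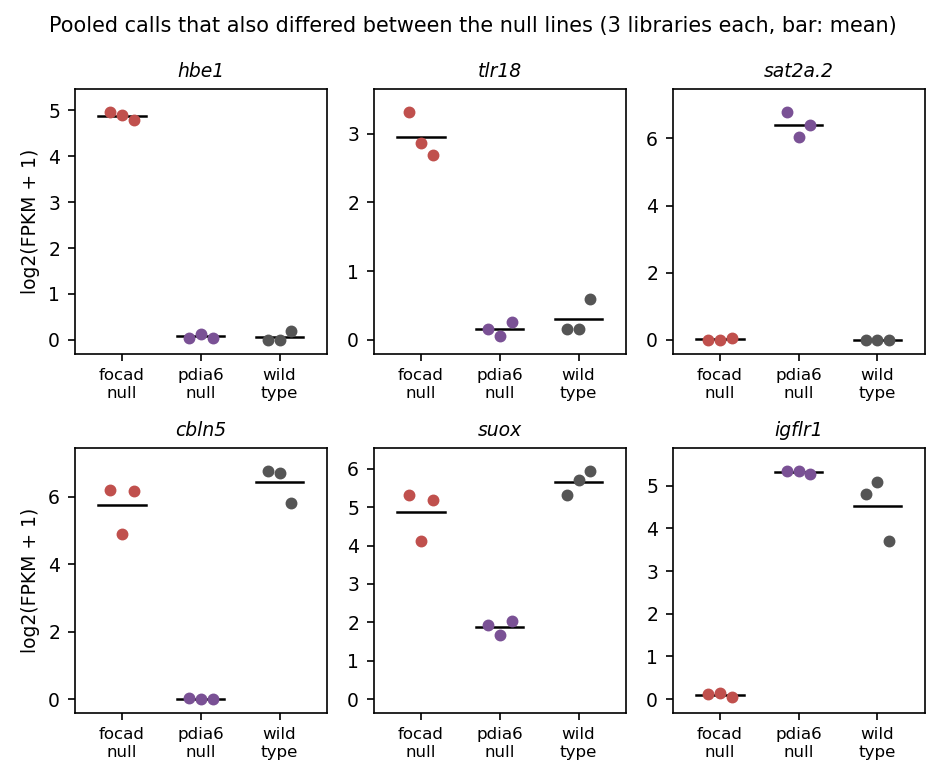
Levels of 6 genes called in the pooled comparison and between the lines, in the focad null, pdia6 null and wild-type libraries on the log2(FPKM + 1) scale, with 3 points and a bar for the mean in each group. Hbe1 (ENSDARG00000097238, 1 of several IDs of that name) and tlr18 are high in focad null alone, sat2a.2 in pdia6 null alone, cbln5 and suox are low in pdia6 null and igflr1 in focad null.

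Of the 208 genes, 83 had placeholder names or none, and 61 of these were common changes. The examples here were picked after their values were seen. ENSDARG00000094110, the gene of lowest p among all tested, stood at 0.0489, 0.0681 and 0 FPKM in the focad null libraries, 0, 0.267 and 0.176 FPKM in the pdia6 null libraries, and 159, 174 and 166 FPKM in wild type (log2 difference -7.26, SE 0.14, adjusted p = 5.82e-08). Null libraries were near 0 and wild-type libraries close to each other. ENSDARG00000092634, which has no symbol, averaged 1.42 ± 1.09 FPKM in focad null, 0.0358 ± 0.00899 FPKM in pdia6 null and 206 ± 173 FPKM in wild-type libraries (log2 difference -6.75, SE 0.46, adjusted p = 0.000267). ENSDARG00000099056, also unnamed, stood at 22.4, 15.8 and 26.1 FPKM in the focad null libraries, 144, 143 and 218 FPKM in the pdia6 null libraries, and 0.0658, 0.0254 and 0.0658 FPKM in wild type. Both lines were above wild type (log2 difference 5.84, SE 0.22, adjusted p = 4.22e-06), and pdia6 null was the higher line (between the lines -2.92, SE 0.25, adjusted p = 0.00181).

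Some called genes lie close to each other when the tested genes are placed in the RefSeq order of the assembly GRCz12tu, which is another build than the authors' and is used here for order alone. Of 98 called genes that could be placed, 6.12% had a called gene next to them, against 2.08% of the 9339 tested genes placed, and 18.4% against 9.38% had one within 5 genes. Tapbp.1 and mhc1uba lie in a run, each within 5 genes of the next, with si:ch211-264f5.2, which rose while they fell. Phf20l1 and c1s.2, both increases, lie within 5 genes of each other, as do urahb and nudt7, both decreases. Nudt7 encodes a peroxisomal enzyme that cleaves coenzyme A and averaged 5.61 ± 0.314 FPKM in focad null, 10.8 ± 0.874 FPKM in pdia6 null and 16.1 ± 3.12 FPKM in wild-type libraries (log2 difference -0.94, SE 0.17, adjusted p = 0.034). C3a.3, which fell, lies within 5 genes of zgc:171470, which had reads in focad null libraries only, at 29.9, 7.09 and 14.3 FPKM in the focad null libraries, 0 FPKM in each of the pdia6 null libraries, and 0 FPKM in each wild-type library. Wnt5b, which fell, is in a run of the same kind with adipor2 and samm50l, which rose. The cause of these neighbourhoods was not tested.

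In the authors' deposited tables, each of which sets a single line against wild type, 100 of the 208 genes were called with the same sign for focad null and 124 for pdia6 null, and 0 with the opposite sign in either. In both tables together, 66 of the 208 genes were called with the same sign, among them 65 of the 167 common changes. The same wild-type libraries stand behind both tables. The tables come from the libraries used here, so like signs are not independent of the pooled test. Without any 1 library, the pooled count lay between 85 and 269, and 55 of the 208 genes passed in all 9 such fits, 46 of them common changes. The counts fell most without the third (85) or second (89) wild-type library, the first focad null library (108) and the second pdia6 null library (138). The second focad null library had the opposite effect, since 269 genes were called without it.

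**Figure D5:**
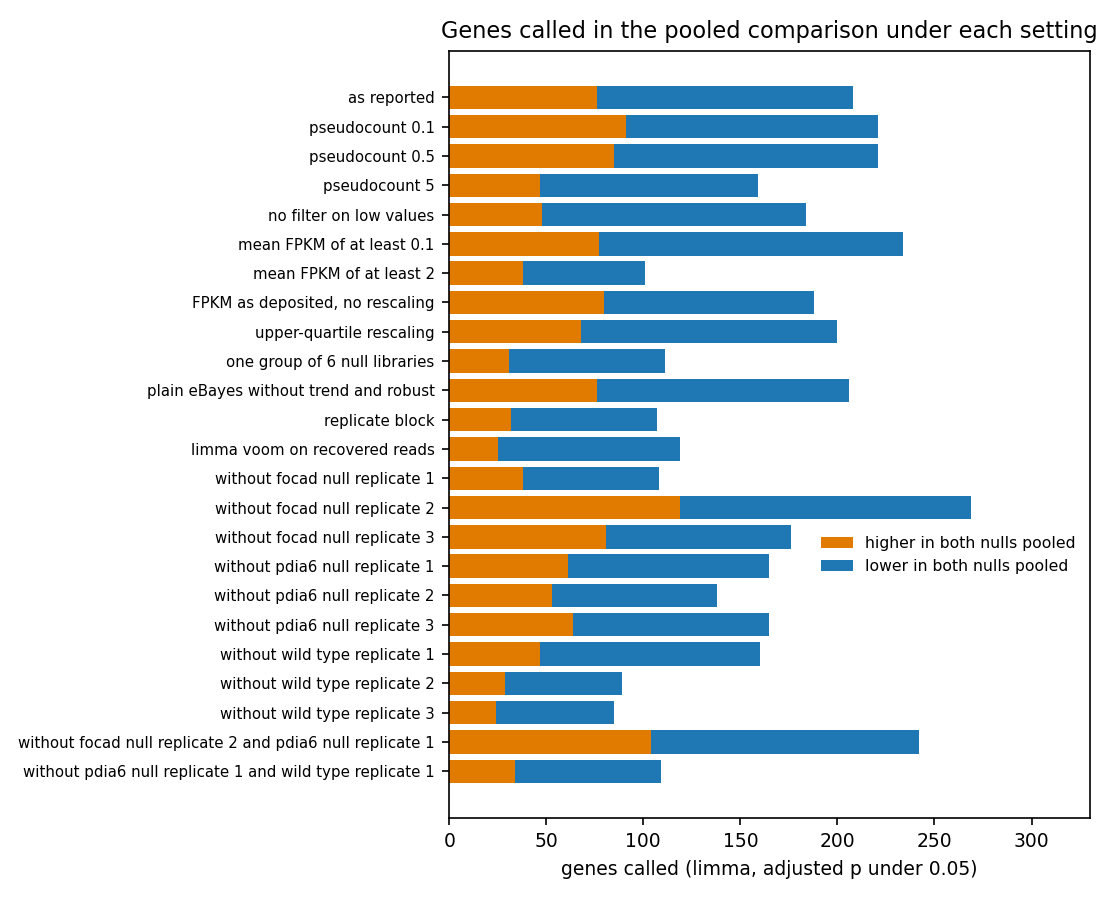
Genes called higher and lower in both nulls pooled, as stacked counts, for the fit as reported (76 and 132) and for each alternative. The total runs from 85 without the third wild-type library to 269 without the second focad null library, and more genes fell than rose under each setting.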

How the data were processed

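Liver RNA sequencing of 9 libraries was used as FPKM values deposited by the authors, 1 value per gene and library. Tools listed, with no role or order, in the submitters' processing notes are HTSeq 0.6.1, TopHat2 2.0.12 and Bowtie2 2.2.3, and the build listed is danRer11. The authors also deposited, for each null line against wild type, a signal column (group mean read counts) and p-values, of which the sign and the adjusted p-values were used. Of the 33716 gene IDs, 29201 had a symbol.

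FPKM values are multiples of what 1 read is worth in a gene, and reads were recovered from these steps: of 164587 values under 1000 reads, 100% were whole within 0.05 reads. Replicate libraries of a group differed by far more than counting error (chi-square per degree of freedom at least 138.9), so each was counted once. Levels were rescaled by median ratios over the 7660 genes that reached 1 FPKM in every library, and log2(FPKM + 1) values of the 13290 genes averaging 0.5 FPKM or more were fitted by group with limma 3.58.1 (R 4.3.3, eBayes with trend and robust, 6 residual degrees of freedom). This scale understates changes of low genes. The pooled contrast was the mean of the 2 null groups minus wild type. A second contrast was focad null minus pdia6 null. P-values were two-sided and adjusted by Benjamini-Hochberg across every gene tested, and a gene is called at an adjusted p under 0.05. The pooled test was run on simulated data in which changed genes shifted by the same fold in both null lines. That run does not cover changes in a single line or library, and its outcome is not used here. Errors are SD over 3 libraries for levels and SE for log2 differences.

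Gene lists (46 lists, 1394 of 1541 symbols matched) and the comparison itself were chosen with earlier results of these data known. Genes named in the text were the targeted genes, the 12 largest increases and 12 largest decreases among called genes with a name and no overlap between null and wild type, up to 3 called members of each list, and the 5 of lowest p among calls made in neither line alone and among calls that differ between the lines. Other genes named were members of lists standing apart from wild type in all null libraries, or were chosen after their values were seen. Figures were drawn with matplotlib 3.10.9 in Python 3.11.15. No sequence is given, since no sequence table was used here.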

Additional observations from a re-analysis of the deposited data

Results flagged for a closer look

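Within the 6 null libraries, 1 library stood far from the others in 9 of the 107 named genes, measured as the gap to its nearest neighbour over the whole range of the 6 (above Dixon's 95% critical value for 6 samples). Chance gives this in about 1 of 20 groups. The second focad null library was the highest in ptgr1.1 (0.654), sult3st3 (0.631) and rpl22l1 (0.645), and in mhc1uca and pcnp (1.000 each), where it held the only read of the null libraries. It was the lowest in esr1 (0.670), the oestrogen receptor gene. The third pdia6 null library was the highest in znf1179 (0.973), and the second in ddx4 (0.988), a germ cell gene. The first pdia6 null library was the lowest in mcm7 (0.651), a replication gene.

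In 9 named genes the lines differed from each other by the limma test of focad null minus pdia6 null on the log2 scale. The naming rule took in the 5 pooled calls of lowest p for this difference, so their place here was fixed by that rule. The differences were 4.81 for hbe1, 5.72 for cbln5, 3.01 for suox, 2.80 for tlr18, 2.45 for msrab and 1.47 for cyp8b1, all higher in focad null. They were -6.39 for sat2a.2, -5.22 for igflr1 and -3.15 for cyp2x7, a cytochrome P450 gene that was not called in the pooled comparison, all higher in pdia6 null.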

How the results depend on the processing

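The count of 208 genes (76 higher, 132 lower, 41 also differing between the lines and 167 common) stayed within 1.5 times, except as follows. Requiring a mean of 2 FPKM gave 101 genes (38 higher, 63 lower, 19 differing, 82 common). Fitting the 6 null libraries as a single group gave 111 (31 higher, 80 lower), all among the 208, since the difference between the lines then counts as spread. Limma voom on recovered reads gave 119 (25 higher, 11 differing, 106 common), of which 117 were among the 208. Leaving out the first pdia6 null and first wild-type libraries gave 109 (34 higher, 75 lower, 10 differing, 99 common). A pseudocount of 5 gave 47 higher and 23 differing, and no filter gave 48 higher. The replicate block gave 107 (32 higher, 75 lower, 14 differing, 92 common), of which 100 were among the 208. Deviations of same-numbered libraries correlated between -0.19 and 0.29, and not each library correlated best with its own number. The highest of these was between the first pdia6 null and first wild-type libraries. With 3 libraries per group, these correlations cannot settle whether the replicate numbers pair the libraries. With 1 library left out, the counts were 85 to 269 in all, 24 to 119 higher, 60 to 150 lower, 11 to 59 differing and 72 to 214 common. No named gene changed direction where called. The call of a named gene was lost in 13 with voom, 16 with a single null group, 16 with the block and up to 24 without 1 library. The 107 named genes include the targeted genes and many uncalled list members. These had no call to lose, so 107 is not the base of the losses. The cause of these shifts was not tested beyond what the settings' construction shows.

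Without rescaling, the share of calls that were higher was 42.6%, against 36.5% with it, and the median of all genes moved to 0.09. The medians of the class I, purine, gluconeogenesis, cytochrome P450, interferon, ribosomal, circadian and endothelial lists changed sign with the scaling. Genes at a few reads in a group have log2 differences limited by the pseudocount.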
